A study of Mus musculus with 8 samples.

Results

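The aldo-keto reductases of the Akr1a, Akr1b and Akr1c subfamilies were followed in mouse epidermis after a topical glucocorticoid. Their 8 named genes were Akr1c18, Akr1c19, Akr1c12, Akr1c13, Akr1b8, Akr1b10, Akr1b3 and Akr1a1, and they were chosen because FA effects on some of them in females and males were already known from these arrays. A gene was measured when a probe of the deposited matrix carried its symbol in the platform annotation, which held for 6 of the 8 genes with 8 of 13247 probes. Akr1c18, Akr1c19, Akr1c12, Akr1b8 and Akr1b10 had 1 probe each and Akr1a1 had 3, of which the probe with the highest mean over the 8 arrays gave the main value. No named probe of the matrix carried the symbols Akr1c13 or Akr1b3, so both were not analysed here. Where a gene was covered by several probes in the whole matrix the same choice was made, which left 9416 genes for comparison.

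RNA from the epidermis of wild-type B6129 mice was hybridised to 8 Illumina bead arrays. There were 4 groups of 2 arrays: females given vehicle, females given fluocinolone acetonide (FA, a synthetic glucocorticoid used on inflamed skin), males given vehicle and males given FA. All mice were 7 to 8 weeks old and had shaved backs, and 3 days after shaving each received on the back 1 dose of 2 µg FA in 200 µl acetone, or acetone alone, with tissue taken 24 h later. The design names 2 animals per condition, which limits the precision of every value.

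Aldo-keto reductases use NADPH to reduce carbonyl groups to alcohols. Members of the Akr1c subfamily act on steroids and prostaglandins, and Akr1c18 is the mouse hydroxysteroid dehydrogenase that inactivates progesterone. Akr1b members include aldose reductase, encoded by Akr1b3, which starts the polyol pathway, and aldose reductase-like enzymes that reduce lipid-derived aldehydes; Akr1a1, aldehyde reductase, takes part in ascorbate synthesis in mice. In skin, steroids, retinoids and lipid aldehydes are all handled locally, and glucocorticoids act there through a receptor that binds DNA.

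The Akr1c genes lie together in the mouse genome. In the RefSeq order of protein-coding genes (GRCm38.p6), chromosome 13 holds Akr1c14, Akr1c18, Akr1c13, Akr1c19, Akr1c12, Akr1c6, Akr1c20, Akr1c21 and Akr1e1 without another protein-coding gene between them. Akr1b3, Akr1b8, Akr1b10 and Akr1b7 are likewise neighbours on chromosome 6, while Akr1a1 stands apart on chromosome 4 between Nasp and Prdx1. RefSeq promoter windows (GRCm38.p6, from 250 bases before to 50 bases after the gene start) were found for 7 of the 8 genes, all but Akr1b3. The windows of Akr1c18 and Akr1c19, whose levels varied together over the arrays, and of their neighbour Akr1c12, which varied little, are shown in gene orientation, 5′ to 3′, with capitals for the only match to the motifs searched.
Akr1c18 promoter, chr13:4150597-4150896, minus strand: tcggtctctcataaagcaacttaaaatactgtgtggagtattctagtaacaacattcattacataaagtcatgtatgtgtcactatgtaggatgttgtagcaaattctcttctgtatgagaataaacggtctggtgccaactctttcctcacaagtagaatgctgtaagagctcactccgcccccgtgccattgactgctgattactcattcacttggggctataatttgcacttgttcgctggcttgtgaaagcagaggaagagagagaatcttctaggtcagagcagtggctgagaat
Akr1c19 promoter, chr13:4233490-4233789, plus strand: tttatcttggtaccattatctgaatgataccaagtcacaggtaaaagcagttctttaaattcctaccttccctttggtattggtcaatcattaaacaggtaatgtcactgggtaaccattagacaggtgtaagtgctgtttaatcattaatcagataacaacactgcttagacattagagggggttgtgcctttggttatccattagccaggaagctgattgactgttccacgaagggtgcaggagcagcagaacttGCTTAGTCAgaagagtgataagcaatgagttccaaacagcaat
Akr1c12 promoter, chr13:4279350-4279649, minus strand: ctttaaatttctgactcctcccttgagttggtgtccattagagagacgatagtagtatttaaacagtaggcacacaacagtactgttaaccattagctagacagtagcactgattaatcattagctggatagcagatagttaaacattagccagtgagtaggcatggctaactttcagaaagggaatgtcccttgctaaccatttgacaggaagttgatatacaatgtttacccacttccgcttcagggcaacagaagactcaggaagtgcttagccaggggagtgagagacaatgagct

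The Akr1c19 and Akr1c12 windows were alike at 74.1% of 232 aligned bases, whereas the Akr1c18 window shared 62.5% of 251 aligned bases with that of Akr1c19. The closest pair was Akr1c12 and Akr1c13, with 95.9% identity over 296 aligned bases. Identity between an Akr1c window and one of Akr1b8, Akr1b10 or Akr1a1 was 57.5% to 64.5%, so the Akr1c18 and Akr1c19 windows were no more alike than windows of different subfamilies. On both strands, the steroid receptor element (AGAACA and TGTTCT with 3 bases between them), which 0.00913% of 32851 promoters hold, its TGTTCT arm (19% of promoters, found within every copy of the full element) and the estrogen receptor element (GGTCA and TGACC with 3 bases between them, 0.07%) were searched. The inverted repeats through which the glucocorticoid receptor can repress genes, CTCC followed by GGAGA with 1 base (0.737%) or 2 bases (0.676%) between them or CTCCGGAGA with none (0.317%), and the antioxidant response core TGACNNNGC (12.4%) were searched as well. In the 7 windows the single match was an antioxidant core on the reverse strand of Akr1c19, printed as GCTTAGTCA and beginning 8 bases after the gene start. A match describes letters only, and a window without a match says nothing of more distant sites.

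Female FA replicate 2 stood apart from the other arrays. It had 32.4% of 25697 probes detected against 44.5% to 46.9% elsewhere. Detected means a detection p under 0.05, the probability that background alone gives a signal at least as high. Its floor, the lowest log2 level among detected probes, was 5.88 against 4.90 to 4.99 elsewhere. A level below an array's floor is therefore only a bound. The tissue label was set against keratinocyte markers, of which 8 of 10 were measured and all 8 were detected on every array, with a mean level of 13.39 to 13.72 on the log2 scale. That mean follows the brightest probes, and single markers moved with FA, as given below. Markers of fibroblasts and skeletal muscle were detected too, at least 1 and 2 of 8 on every array. In bulk tissue of this kind, fewer cells of a type and less RNA per cell cannot be told apart.

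Akr1c18 was high in females given vehicle, low in males given vehicle and at background in both sexes after FA. Its log2 levels were 10.09 and 9.67 in females given vehicle, 4.62 and 4.33 in females given FA, 5.72 and 6.18 in males given vehicle, and 4.53 and 4.51 in males given FA. Every female vehicle array lay above every other array, and the male vehicle arrays read between these and the FA arrays. Female FA replicate 2 had a floor of 5.88, so its order against male vehicle replicate 1 is not read. The signals before normalization were 1490 and 914 in female vehicle, 127 and 134 in male vehicle, and 94 to 109 on the 4 FA arrays, on none of which the probe was detected. FA samples were thus at least 21.8-fold lower than vehicle in females (log2 difference -5.41 ± 0.23, SE, n = 2 arrays per group) and at least 2.04-fold lower in males (-1.43 ± 0.23). Without female FA replicate 2 the bound in females was at least 29.7-fold. Among the 9416 genes the log2 difference in females was the lowest; it is given as a description, because this contrast was used to choose the genes.

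Akr1c19, the paralog after Akr1c13 on chromosome 13, was likewise highest in females given vehicle and at background after FA. The log2 levels were 8.14 and 8.0 in female vehicle, 4.80 and 4.42 in female FA, 5.14 and 5.07 in male vehicle, and 4.48 and 4.36 in male FA. Females given vehicle again stood above all other arrays, and the male vehicle arrays were only just detected, with detection p of 0.015 and 0.039. None of the 4 FA arrays detected the probe. The level with FA was at least 6.23-fold lower in females (log2 difference -3.46 ± 0.18) and at least 1.13-fold lower in males (-0.68 ± 0.18). Without female FA replicate 2 the female bound was at least 8.50-fold.

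Akr1c12, the next Akr1c gene, stayed near background on every array. Its log2 levels were 5.08 and 5.38 in female vehicle, 4.64 and 4.74 in female FA, 4.78 and 5.0 in male vehicle, and 4.58 and 4.43 in male FA. Both female vehicle arrays read highest of the 8, but the place of female FA replicate 2, undetected under a floor of 5.88, is not read. The whole range was 0.94, against 5.76 for Akr1c18 and 3.78 for Akr1c19. The probe was detected on 3 arrays, both female vehicle arrays and male vehicle replicate 2, so no fold is given for FA. The log2 differences with FA were -0.54 ± 0.18 in females and -0.38 ± 0.18 in males. Akr1c12 and Akr1c13 are near-identical genes, and whether its probe also reads Akr1c13 was not tested.

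**Figure D1:**
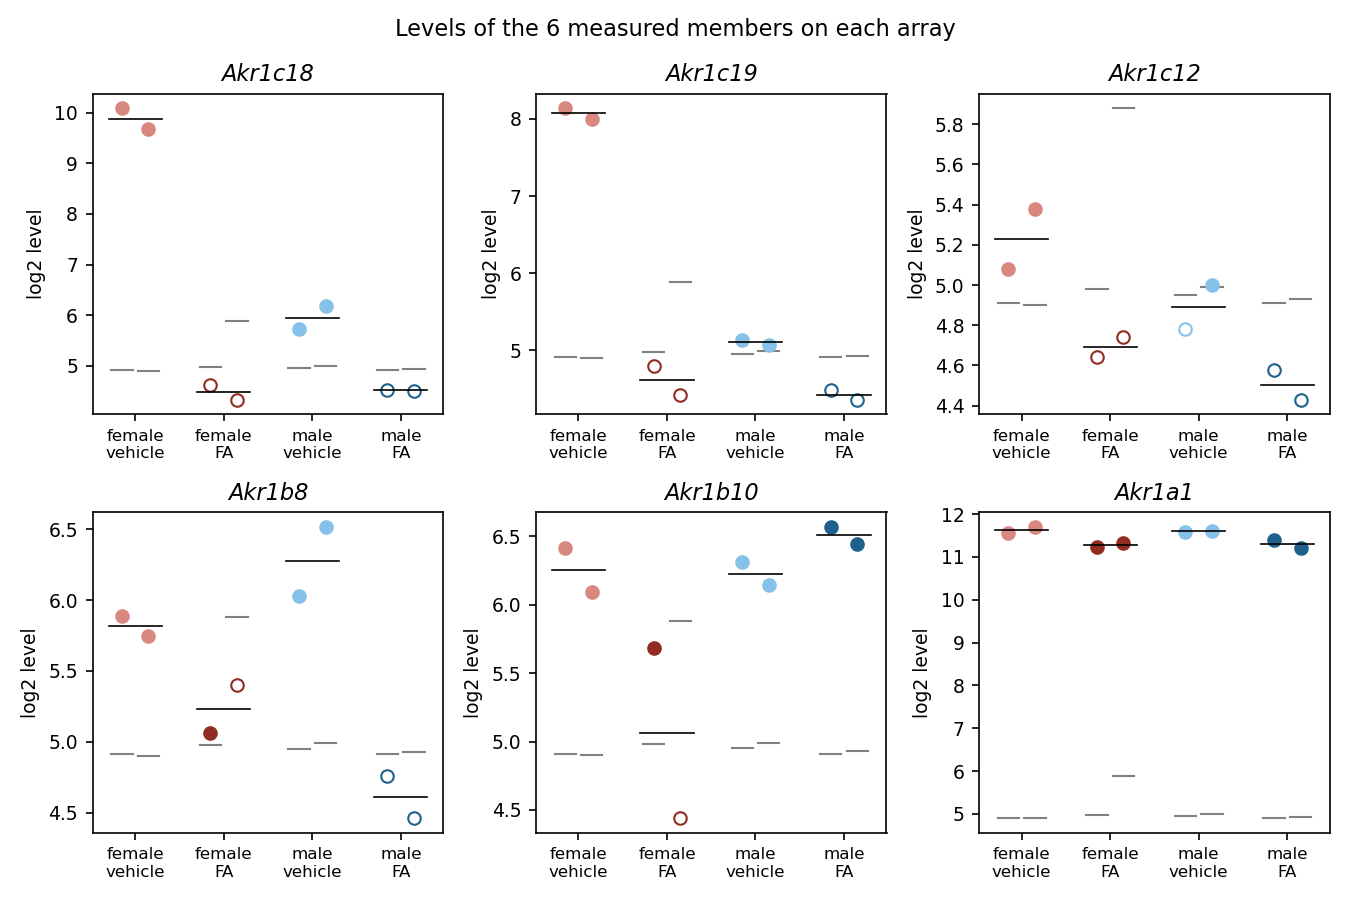
Normalized log2 level of each measured aldo-keto reductase (y axis, own scale per gene) on the 8 arrays by group (x axis). Filled points were detected and open points were not, black lines are group means and grey ticks mark each array's floor. Akr1c18 and Akr1c19 stand highest in the female vehicle arrays and lie at or below the floor on all FA arrays.

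Among the Akr1b genes, Akr1b8 was lower with FA in both sexes, and both folds are bounds. Its log2 levels were 5.89 and 5.75 in female vehicle, 5.06 and 5.40 in female FA, 6.03 and 6.52 in male vehicle, and 4.76 and 4.46 in male FA. All vehicle arrays read above all FA arrays, and in the FA groups only female FA replicate 1 was detected. The place of female FA replicate 2 is not read, since its floor of 5.88 lay above female vehicle replicate 2. Signals before normalization were 153 and 133 in female vehicle and 112 and 220 in female FA. In males they were 139 and 148 with vehicle and 105 and 92.9 with FA. FA was at least 2.55-fold lower than vehicle in males (log2 difference -1.66 ± 0.23) and at least 1.28-fold lower in females (-0.59 ± 0.23), a bound that was 1.70-fold without female FA replicate 2. The difference in FA effect between the sexes, males minus females, was -1.06 ± 0.32 and did not pass (limma adjusted p = 0.714). It passed when female FA replicate 1 was left out (-1.24, adjusted p = 0.0417), and the adjusted p was 0.0417 to 0.948 over 16 alternatives.

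Akr1b10, its neighbour, was the member whose FA arrays did not all lie below its vehicle arrays. The log2 levels were 6.41 and 6.09 in female vehicle, 5.68 and 4.44 in female FA, 6.31 and 6.14 in male vehicle, and 6.57 and 6.44 in male FA. In males both FA arrays were above both vehicle arrays, by 1.21-fold (log2 difference 0.27 ± 0.37). In females FA was at least 1.38-fold lower (-1.19 ± 0.37), and this difference depended on replicate 2 of the FA group, which did not detect the probe: it was -0.57 without that array and -1.81 without replicate 1. The sexes' FA effects differed by 1.46 ± 0.52 and did not pass (limma adjusted p = 0.731). The difference was 2.08 without female FA replicate 1, when only the array that did not detect the probe remained, and 0.84 without replicate 2.

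Akr1a1 was the member detected on all 8 arrays, with a range of 0.50 on the log2 scale. Its main probe read 11.56 and 11.71 in female vehicle, 11.23 and 11.32 in female FA, 11.59 and 11.61 in male vehicle, and 11.40 and 11.20 in male FA. Every FA array lay below every vehicle array, by 1.28-fold in females (log2 difference -0.36 ± 0.16) and 1.23-fold in males (-0.29 ± 0.16). The other 2 probes gave FA effects of -0.62 and -0.58 in females and -0.44 and -0.49 in males, the same direction with larger sizes. Levels of different probes are not compared here, since each probe has its own binding.

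The FA effects spread the 6 genes widely. In females 2 of 6 passed the adjusted threshold, Akr1c18 and Akr1c19, both lower and none higher, where 10.0% of all genes passed, 4.57% as higher and 5.46% as lower. In males 2 of 6 passed, Akr1c18 and Akr1b8, both lower and none higher, against 8.19% of all genes, 4.01% as higher and 4.17% as lower. The FA and vehicle arrays did not overlap for 6 of 6 genes in females and 6 of 6 in males, where this held for 56.2% and 58.5% of all genes. On 5 of 6 genes, all but Akr1b10, the 4 FA arrays read below the 4 vehicle arrays, which held for 14.6% of all genes. For Akr1c18, Akr1c19, Akr1c12 and Akr1b8 this order is not read for female FA replicate 2. That array did not detect them, and its floor of 5.88 lay above their lowest vehicle levels (5.72, 5.07, 4.78 and 5.75). Among females the same floor limits the separation of Akr1c12 and Akr1b8. The median log2 difference of the 6 was -0.89 in females and -0.53 in males, against -0.04 and -0.01 over all genes. These counts and medians describe genes chosen on the same contrasts, and Akr1c18, Akr1c19 and Akr1c12 entered the matrix through vehicle arrays alone, so nothing is read from them.

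**Figure D2:**
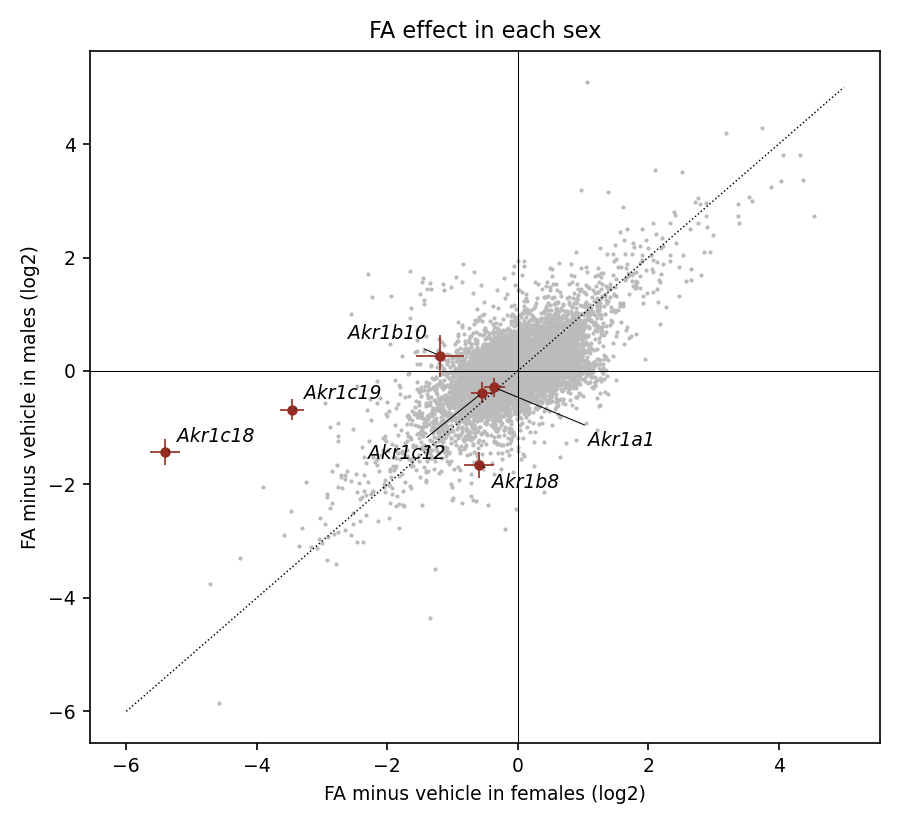
FA minus vehicle in females (x axis) against males (y axis), both in log2, for all genes (grey) and the measured aldo-keto reductases (red, error bars SE). The dotted line marks equal effects; Akr1c18 (-5.41 and -1.43) and Akr1c19 (-3.46 and -0.68) lie far to its left and Akr1b8 (-0.59 and -1.66) below it.

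The sexes were also compared without FA. The rule named no such contrast, but the FA effects by which the genes were chosen use the same vehicle arrays, so for genes at background with FA this comparison nearly repeats the difference of those effects, and its p-values give no independent support. In vehicle, Akr1c18 was 15.2-fold higher in females than in males (male minus female log2 difference -3.93 ± 0.23, SE, n = 2 arrays per group, limma adjusted p = 0.00162). Akr1c19 was 7.82-fold higher in females (-2.97 ± 0.18, adjusted p = 0.00162). For both genes the female and male arrays were far apart relative to the spread within a group, which was 0.29 and 0.32 (SD) for Akr1c18 and 0.10 and 0.05 for Akr1c19. Akr1c18 passed in 16 of 16 alternatives (adjusted p 4.42e-05 to 0.049). Akr1c19 passed in 14 of 16 (adjusted p 5.17e-05 to 0.0589), the exceptions being the fits that left out female vehicle replicate 1 (0.0506) or male vehicle replicate 2 (0.0589). Without background correction the differences were -2.78 and -1.57.

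Only 0.0743% of genes passed in this comparison, 7 of 9416, with 3 higher in males (0.0319%) and 4 lower (0.0425%); of the members 0 were higher and 2 lower. For 3 of 6 members, Akr1c18, Akr1c19 and Akr1c12, both female vehicle arrays read above the other 6, as for 6.98% of all genes. For Akr1c12 the place of female FA replicate 2, undetected under its floor of 5.88, is not read. Akr1c18 had the lowest log2 difference of all genes and Akr1c19 the third lowest. The other calls, named after their values were seen, were Eif2s3y, a Y-linked gene (5.48 ± 0.16), Serpina3n (2.40 ± 0.23) and Ccl4 (1.74 ± 0.19) as higher in males, and Hamp2 (-3.71 ± 0.31) and Xist, the RNA of the inactive X chromosome (-2.60 ± 0.23), as lower. The sex-linked pair matched the labelled sexes. The number of calls was 2 to 46 when single arrays were left out, with 2 without female vehicle replicate 1 or male vehicle replicate 2, 3 without female vehicle replicate 2, and 46 without either female FA array.

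The remaining members did not pass between the sexes in vehicle. Akr1c12 had a male minus female difference of -0.34 ± 0.18 (adjusted p = 0.928) and was at least 1.20-fold higher in females, whose 2 arrays were both above the male ones. Akr1b8 was 1.37-fold higher in males (0.45 ± 0.23, adjusted p = 0.928), again without overlap of the arrays. Female and male vehicle arrays did not overlap for 4 of 6 members, against 41.5% of all genes. Akr1b10 (-0.02 ± 0.37) and Akr1a1 (-0.04 ± 0.16) had differences close to 0 with overlapping arrays (adjusted p = 0.999 for both). Between the sexes after FA no fold is given for Akr1c18, Akr1c19 or Akr1c12, which no FA array detected. None is given for Akr1b8 either, which female FA replicate 1 detected just above its floor (5.06 against 4.98) but whose mean lay below the mean floor of both groups.

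**Figure D3:**
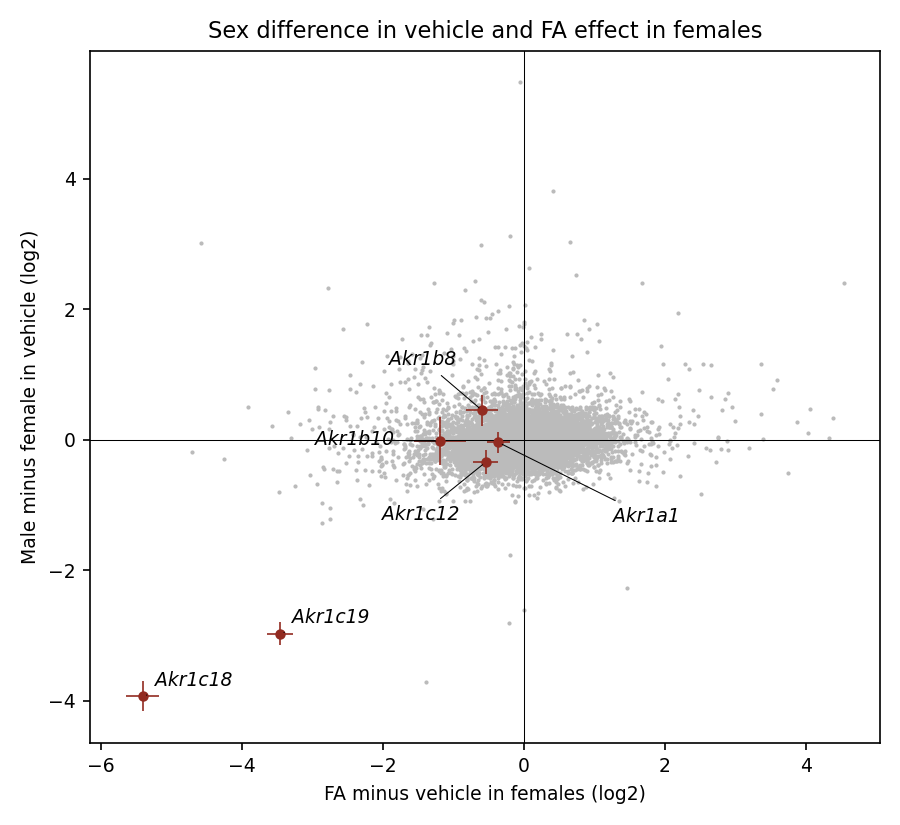
FA minus vehicle in females (x axis) against male minus female in vehicle (y axis), both in log2, for all genes (grey) and the measured aldo-keto reductases (red, error bars SE). The axes share the female vehicle arrays; Akr1c18 (-5.41 and -3.93) and Akr1c19 (-3.46 and -2.97) lie in the lower left corner, away from the other members near 0.

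The FA effect was also compared between the sexes. The difference, males minus females, was 3.98 ± 0.32 for Akr1c18 (limma adjusted p = 0.0352) and 2.78 ± 0.26 for Akr1c19 (adjusted p = 0.0451), and these were the only 2 genes of 9416 that passed (0.0212%). Since it is built from the contrasts by which the genes were chosen, it gives no independent support, and all FA levels of both genes were below the floor. Each call held in 6 of 16 alternatives, with adjusted p of 0.00171 to 0.472 for Akr1c18 and 0.0025 to 0.558 for Akr1c19. With values below the floor set to the floor the differences were 3.42 and 2.46 (adjusted p = 0.24 for both). Both calls were lost when any vehicle array or any male FA array was left out, namely for Akr1c18 without female vehicle replicate 1 (0.388) or 2 (0.216), male vehicle replicate 1 (0.193) or 2 (0.149) and male FA replicate 1 (0.472) or 2 (0.422). Akr1c12 (0.16 ± 0.26, adjusted p = 0.873) and Akr1a1 (0.07 ± 0.23, adjusted p = 0.94) did not pass.

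The profiles of the 6 genes over the 8 arrays were set against each other and against all genes by Pearson's r, as a description without a test, since the arrays share 4 groups. Akr1c18 and Akr1c19 had r = 0.990 and were each other's nearest gene. Akr1c12 followed Akr1c18 at r = 0.879 and Akr1a1 did at 0.746, Akr1b8 at 0.523 and Akr1b10 at 0.306. The adjacent pair Akr1b8 and Akr1b10 had r = -0.0214. After Akr1c19, the genes nearest to Akr1c18 were Wnt10b (0.982), with group means of 5.08 and 4.46 in vehicle and FA of females and 4.64 and 4.53 in those of males, and S100a11 (0.972), with 13.26, 12.86, 12.99 and 12.80. S100a11 ranked the groups with female vehicle highest and male vehicle next, and Wnt10b read highest in female vehicle, both over a much smaller range. Outside female vehicle the Wnt10b means lay below the array floors, so their order is not read.

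For Akr1c19 the nearest genes after Akr1c18 were Wnt10b (0.977) and Ehhadh (0.960), whose means were likewise below the floors outside female vehicle. Akr1c12 was nearest to Nr2f6 (0.976), Prom2 (0.971) and Wnt4 (0.964), and Wnt4 had means of 8.39, 7.18, 7.93 and 6.85 in the same order of groups. Akr1b8 was nearest to Mrpl23 (0.976), Timm8a1 (0.971) and Lbr (0.969), each highest in male vehicle and lowest in male FA. Akr1b10 was nearest to Nipsnap2 (0.994), Slc16a13 (0.988) and Mpv17 (0.984), all lowest in female FA, the group that holds the array with the high floor. Akr1a1 was nearest to Prpf19 (0.969), Hmgn2 (0.968) and Ppp1r35 (0.968).

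Marker levels moved beside these results. Of all genes, 4.57% passed as higher and 5.46% as lower with FA in females, and 4.01% and 4.17% in males. The keratinocyte mean was 13.70 to 13.72 with vehicle and 13.39 to 13.44 with FA. Of 8 keratinocyte markers 1 passed as higher and 2 as lower in females, and 1 and 1 in males. Named after their values were seen, Krt1 had -3.05 and -2.96 in females and males, Krt5 -1.62 and -0.7, Itga6 0.97 and 0.56, and Krt15 0.35 and 0.76. The mean level of 6 of 8 Langerhans cell markers was 10.48 to 10.60 in female vehicle and 8.29 to 8.39 in female FA, and 10.31 to 10.61 against 7.55 to 8.45 in males. Dendritic epidermal T cell markers (6 of 7 measured) went from 8.23 to 8.25 down to 7.23 to 7.41 in females and from 8.51 to 8.53 down to 6.86 to 6.94 in males. The mean of each immune list thus stood lower with FA in each sex, but single markers differed. Of 6 Langerhans cell markers 4 passed as lower in each sex and 0 as higher. Those 4 were Cd74, H2-Ab1, H2-Eb1 and Ciita in both sexes, all genes of MHC class II presentation. Of 6 T cell markers 3 passed as lower in females and 4 in males, against 5.46% and 4.17% of all genes. Named after their values were seen, Cd86 had 0.83 and 0.26, Cd207 -0.71 and -1.16, and Ptprc 0.30 and -0.29. None of these 3 passed in either sex. Sebaceous gland and upper follicle markers (9 of 12) were 10.94 to 11.05 with vehicle and 9.52 to 10.02 with FA in females, and 11.19 to 11.30 and 10.52 to 11.27 in males. This mean of linear levels follows the brightest probes, and gene by gene the values differed. The median log2 difference was -1.34 in females, with 3 of 9 lower (5.46% of all genes) and none higher. It was 0.38 in males, with 2 of 9 higher (4.01% of all genes) and none lower. Named after their values were seen, the female calls were Scd1 (-1.48), Mgst1 (-2.76) and Krt79 (-2.96), and the male calls were Mc5r (1.36, adjusted p = 0.0424) and Cidea (1.48, adjusted p = 0.0443). In the test of the difference between the sexes none of the 9 passed in limma, with 7 at an unadjusted p under 0.05. Fibroblast markers (8 of 8) were 7.35 to 7.58, 5.95 to 6.93, 8.76 to 9.32 and 6.91 to 7.79 in that order of groups. The mean was lower with FA in both sexes, and 2 of 8 genes passed as lower in each, against 5.46% and 4.17% of all genes. Named after their values were seen, Thbs2 had -2.96, Dcn 0 and Pdgfra 0.12 in females. The 5.95 came from female FA replicate 2, which detected 1 of 8 markers and had a floor of 5.88. The part of these shifts in the FA effects on the aldo-keto reductases was not tested.

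In vehicle, the lists whose means differed most between the sexes were those of fibroblasts and skeletal muscle. No gene of either list passed in limma, with 7 of 8 fibroblast and 3 of 8 muscle markers at an unadjusted p under 0.05. Their part in the sex difference of Akr1c18 and Akr1c19 was not tested. The male minus female difference was 1.57 for fibroblast and 1.39 for skeletal muscle markers (8 of 8), higher in males, with muscle at 7.61 to 8.97 in female and 9.64 to 9.72 in male vehicle. It was 0.25 for sebaceous markers, 0.28 for T cell markers, -0.08 for Langerhans cell markers and -0.02 for keratinocyte markers. Muscle markers were 5.79 to 7.03 in female FA and 10.40 to 11.35 in male FA. Endothelial markers (4 of 5) stayed at 4.86 to 5.33 on all arrays, and only 1 of 6 adipocyte and 2 of 6 melanocyte markers were measured, at 4.38 to 5.15 and 4.49 to 5.64.

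**Figure D4:**
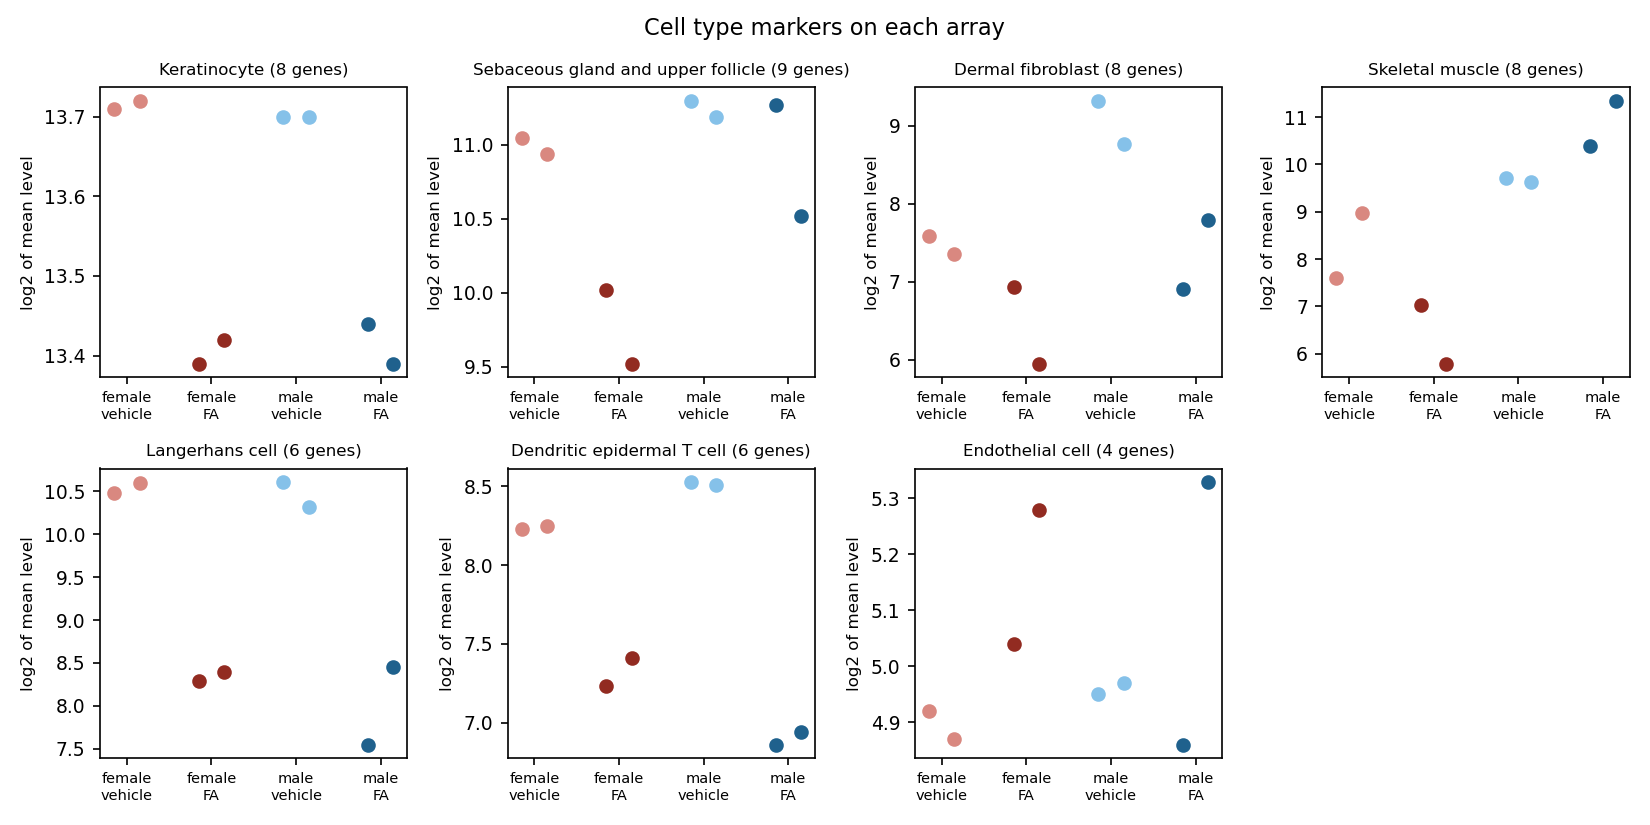
Mean level of each marker list with at least 3 measured genes (y axis, log2 of the mean linear level, own scale per list) on every array by group (x axis). The means of Langerhans cell and T cell markers are lower with FA in both sexes, though not every marker is. In vehicle the fibroblast and muscle means are higher in males, by 1.57 and 1.39, with no single marker past the threshold.

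Related genes were taken from lists of the superfamily and of pathways that share its substrates or cofactor. Of 12 other aldo-keto reductases 4 were measured, and none passed in limma in any comparison, with 1 gene at an unadjusted p under 0.05 in each of them. Akr1e1, at the end of the Akr1c cluster, had FA effects of -0.26 ± 0.28 in females and -0.11 ± 0.28 in males. Akr7a5 had -0.30 ± 0.18 and 0.05 ± 0.18, and Kcnab1, a potassium channel subunit of the same superfamily, had -0.16 ± 0.24 and 0.17 ± 0.24. Kcnab2, its relative, had 0.57 ± 0.19 in females (adjusted p = 0.0998) and -0.67 ± 0.19 in males (adjusted p = 0.0764).

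Genes of pathways that share substrates with Akr1c members were counted next. For these and the following lists, 4.57% of all genes passed as higher in females and 5.46% as lower. In males the shares were 4.01% and 4.17%. No list was tested as a set. Of 12 measured genes of steroid metabolism (27 listed), 1 fell in each sex, Tspo, a protein of the outer mitochondrial membrane (-1.01 ± 0.19 in females, adjusted p = 0.0189, and -0.87 ± 0.19 in males, adjusted p = 0.0344). Hydroxysteroid dehydrogenases of the list did not pass: Hsd17b4 had -0.01 and 0.61, Hsd17b7 0.01 and 0.73, Hsd17b10 0.18 and 0.59, and Hsd3b7 0.26 and -0.19 in females and males. The list's median was 0.00 in females and 0.20 in males, against -0.04 and -0.01 over all genes.

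Of 12 measured prostaglandin genes (22 listed), 2 rose and 3 fell in females, and 1 rose and 2 fell in males. Hpgd, the dehydrogenase that inactivates prostaglandins, read 5.77 and 5.72 in female vehicle, 8.99 and 8.48 in female FA, 6.03 and 6.05 in male vehicle, and 8.44 and 8.44 in male FA. The FA and vehicle arrays of Hpgd did not overlap, and it rose 7.94-fold in females (2.99 ± 0.20, adjusted p = 0.000426) and 5.27-fold in males (2.40 ± 0.20, adjusted p = 0.00112). The carbonyl reductase gene Cbr2 fell 3.11-fold in females (-1.64 ± 0.31, adjusted p = 0.0214) and 4.19-fold in males (-2.07 ± 0.31, adjusted p = 0.00965). Hpgds, a prostaglandin D synthase, fell in females (-0.81 ± 0.18, adjusted p = 0.0341) and in males (-1.34 ± 0.18, adjusted p = 0.00579). The prostaglandin transporter gene Slco2a1 fell in females (-1.12 ± 0.25, adjusted p = 0.0356) and had -0.96 ± 0.25 in males (adjusted p = 0.0641). The other female rise, named after its values were seen, was Ptgds (0.96 ± 0.20, adjusted p = 0.0264). Cbr3 (-0.44 and -0.56) and Ptges3 (0.01 and -0.26) did not pass.

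Among the 13 measured retinoid genes (20 listed), 2 fell in females and 1 in males. Dhrs7, a short-chain dehydrogenase, fell in females (-1.38 ± 0.32, adjusted p = 0.0369) and had -0.33 in males, and Crabp1, a retinoic acid binding protein, fell by at least 2.13-fold in males (adjusted p = 0.00714). Crabp1 also passed in females (-0.82 ± 0.20, adjusted p = 0.0423), where vehicle read 5.53 and 5.04, above the floors of those arrays, and FA read 4.47 and 4.47, undetected; no fold is given, since the mean floor of the FA arrays lay above the vehicle mean. Rdh11, a retinal reductase, had -1.55 ± 0.43 in females (adjusted p = 0.0637) and 0.36 in males, and Rdh12 (0.08 and 0.27) and Crabp2 (-0.46 and -0.45) did not pass.

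Of 11 measured aldehyde dehydrogenases (14 listed), none passed in females, with 2 at an unadjusted p under 0.05, and 1 fell in males. That gene was Aldh18a1, an enzyme of proline synthesis (-1.23 ± 0.22, adjusted p = 0.0163), with -0.36 in females. Aldh2, which oxidises acetaldehyde, had -0.85 ± 0.24 in females (adjusted p = 0.0651) and 0.02 in males. Aldh3a1 (-0.01 and -0.71), Aldh4a1 (0.31 and -0.03) and Aldh6a1 (0.02 and 0.64) did not pass.

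Genes that supply NADPH, the cofactor of aldo-keto reductases, or belong to the polyol pathway had 7 of 11 members measured. In females 3 fell, Idh1 (-2.04 ± 0.36, adjusted p = 0.0166), which makes NADPH from isocitrate, and the pentose phosphate genes Tkt (-1.08 ± 0.25, adjusted p = 0.0361) and Taldo1 (-0.89 ± 0.22, adjusted p = 0.0488). In males none passed in limma, with 3 at an unadjusted p under 0.05: Idh1 had -1.21 ± 0.36 (adjusted p = 0.0918), Tkt -0.58 and Taldo1 -0.55. Me1 (-0.64 ± 0.18 and -0.37) and Pgls (-0.18 and -0.20) did not pass in either sex. None of the members of this list passed in the test of the difference between the sexes, where 0 reached an unadjusted p under 0.05.

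Nrf2 is the regulator that acts on antioxidant elements. Of 14 measured targets outside the family (16 listed) 1 rose in each sex, Gstm1, a glutathione transferase (1.21 ± 0.16 in females, adjusted p = 0.00518, and 0.75 ± 0.16 in males, adjusted p = 0.0321). Ephx1 (0.10 and 0.27), Cat (0.19 and 0.65) and Prdx1 (-0.34 and -0.26) did not pass, and the list's median was 0.02 in females and 0.15 in males. In vehicle, no gene of the steroid, prostaglandin, retinoid, aldehyde dehydrogenase, NADPH or Nrf2 lists passed between the sexes in limma, with 1, 1, 2, 0, 0 and 0 genes at an unadjusted p under 0.05.

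**Figure D5:**
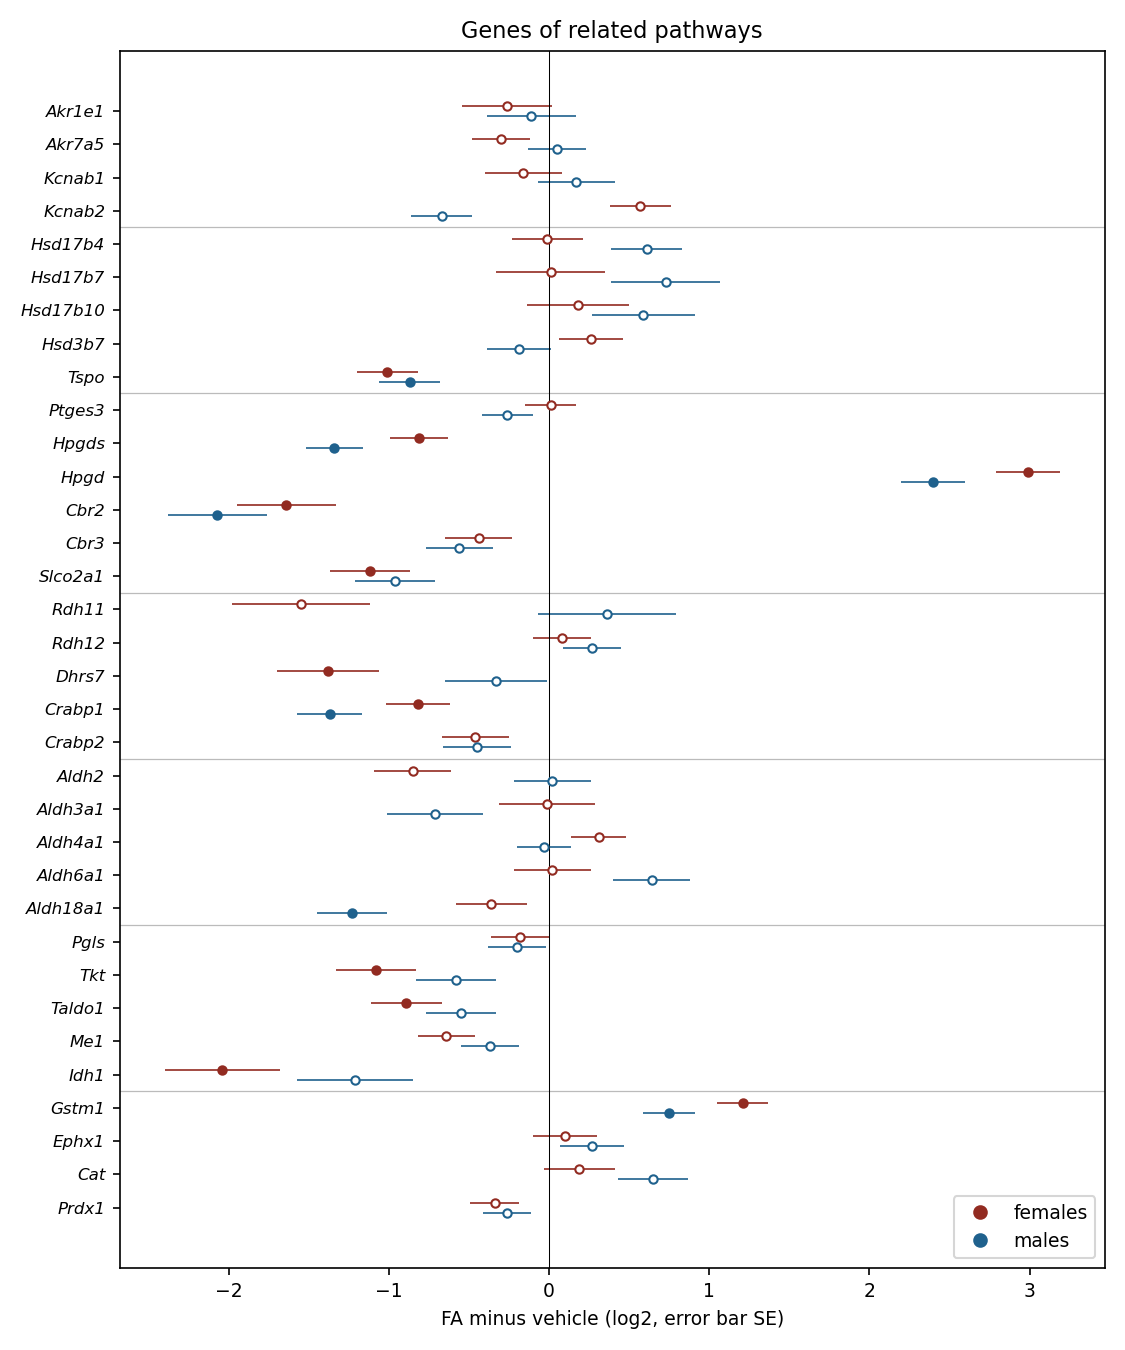
FA minus vehicle (x axis, log2, error bars SE) for the named genes of related lists (y axis, grey lines between lists) in females (red) and males (blue). Filled points passed the adjusted threshold; Hpgd is far to the right in both sexes (2.99 and 2.40) and Idh1 (-2.04) and Cbr2 (-2.07) far to the left.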

How the data were processed

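Per the labels, biotinylated cRNA from epidermal RNA was hybridised to Illumina arrays, with 2 arrays in each of 4 groups of sex and treatment. The authors deposited an unprocessed table with a signal intensity and a detection p-value per probe and array, whose p columns were matched to arrays by their place beside each signal, and a matrix of log2 values. The submitters' processing notes name limma. Applying limma's neqc (normexp with an offset of 16, then quantile normalization) to the deposited intensities gave the deposited log2 values to within 5e-09. Of 25697 probes the matrix held the 13247 whose detection p was below 0.05 on 2 or more arrays, of which 12476 had 1 symbol, 771 had none and none had several. The scanner software is not given in the sources used here.

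The deposited log2 values were fitted with R 4.3.3 and limma 3.58.1 (lmFit and eBayes, 4 group means, 4 residual and 3.35 prior degrees of freedom), after the brightest probe had been kept for 2304 genes with several. Tests were two-sided with Benjamini-Hochberg adjustment over 9416 genes and a threshold of 0.05. The method was tested on simulated data. Folds are "at least" a value, computed against the mean floor or the probe's own level where higher, when a group was undetected or below its floor. Promoters were searched with Python 3.11.15. The rule named every member, the 3 genes nearest to each, all other aldo-keto reductases, and in each related list the 4 with the highest mean plus up to 2 that passed with the largest mean effect.

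Members, lists and tests were chosen with earlier results of these data known. Alternatives changed the scaling, background correction, filter, probe choice, floor, weights, replicate block and arrays used. Replicate numbers did not pair the samples: the correlation of same-numbered arrays' deviations between groups was -0.0341 to 0.234.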

Additional observations from a re-analysis of the deposited data

Results flagged for a closer look

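For Akr1c18 the FA effect in males minus that in females was 3.98 on the log2 scale, and for Akr1c19 it was 2.78. Both stand out because the test of the difference between the sexes passed for them. The genes were chosen with both FA effects known, and levels with FA were below the floor in each sex. No explanation was tested.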

How the results depend on the processing

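Over the 4 comparisons, 384 values of single members were computed under alternative settings: 338 kept direction and side of the threshold, 28 lost the call, 6 gained one and 12 changed sign. Genes past the threshold for FA in females (944) were 1508 without background correction, 506 with array weights, and, with single arrays left out, 216 and 222 (female vehicle replicates 1 and 2), 3004 (female FA replicate 1), 535 (each male vehicle array) and 616 (each male FA array). In males (771) they were 1285, 1454, and 208 to 1497 with single arrays left out. With median scaling the female calls were 599 higher and 466 lower (56.2% higher, 45.6% before), values at the floor gave 54% and genes detected on all 8 arrays 54.5%; the median of all genes moved from -0.04 to 0.15 with median scaling and to 0.17 at the floor. Of the members, 0 passed in any comparison among genes detected on all 8 arrays, where only Akr1a1 was tested, and 1 in males with values at the floor; leaving out arrays gave 2 to 3 in females and 0 to 3 in males. Calls of Akr1c18 in males were lost at the floor (adjusted p = 0.0786), without male vehicle replicate 2 (0.0888) and without male FA replicate 1 (0.0742) or 2 (0.0836), and of Akr1b8 without male vehicle replicate 2 (0.0559) or male FA replicate 2 (0.0612). For the difference in FA effect between sexes, 5 genes passed without background correction and 0 genes (0 members) in limma with median scaling, among genes detected on all 8 arrays, without a filter, at the floor and with the replicate block, where 899, 457, 1274, 630 and 639 had an unadjusted p under 0.05; with single arrays left out it was 0 to 1135 genes, the latter without female FA replicate 1, and 0 to 4 members. Between the sexes in vehicle, 14 genes passed without background correction, 2 among those detected on all 8 arrays and 23 with array weights, and 2 to 46 genes and 1 to 2 members with single arrays left out. With the replicate number as a block, Akr1c18 and Akr1c19 kept their FA calls in females and their calls between the sexes in vehicle (adjusted p = 0.00844 and 0.0066) and lost the one for the difference in FA effect (0.0935 for both).

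The 12 sign changes were as follows. The FA effect on Akr1c12 in females was 0.05 with median scaling and 0.20 at the floor, and its difference between sexes -0.51 and -0.25. That difference for Akr1a1 was -0.02 with median scaling, -0.01 without female vehicle replicate 2 and -0.04 without male FA replicate 1. The vehicle sex difference of Akr1b10 was 0.04 with median scaling, 0.14 without female vehicle replicate 1 and 0.06 without male vehicle replicate 2 (-0.18 to 0.14 with single arrays left out), and that of Akr1a1 0.03 with median scaling and 0.04 without female vehicle replicate 2 (-0.11 to 0.04). The causes were not tested. A slide or scan date block was not run, since the files used here give none. Signal over background limits Akr1c18, Akr1c19, Akr1c12 and Akr1b8 with FA, and 2 arrays per group limit all values.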
